A study of Homo sapiens with 12 samples.

Results

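A set of 9 chemokine ligand genes, CCL1, CCL2, CCL3, CCL4, CCL5, CCL17, CCL20, CCL22 and CXCL10, was followed through RNA sequencing of Hodgkin's lymphoma and B cell lines. They were taken by gene symbol from the gene table of the series, in which all 9 were found among 26210 genes. The series holds 12 libraries of total RNA, 2 from each of 6 conditions. L428, L1236 and KM-H2 are untreated Hodgkin's lymphoma cell lines, grown in IMDM medium. Namalwa, a Burkitt's lymphoma line, and Reh, a pro-B lymphoblastic leukemia line, are the untreated non-Hodgkin controls and were grown in RPMI medium. Reh_PMA is the Reh line treated with 2 ng/ml of phorbol 12-myristate 13-acetate (PMA), a compound that activates protein kinase C, and the time of exposure of these libraries is not given in the sources used here. Each condition is 1 cell line, and all Hodgkin lines were grown in another medium than the controls, so line, lymphoma type and medium cannot be told apart. The question put to the data was which of these ligands the Hodgkin lines carried and whether they were the ones that rose in Reh with PMA.

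Chemokines are small secreted proteins that bind G protein-coupled receptors and direct the movement of leukocytes. CCL17 and CCL22 act through CCR4 on type 2 helper and regulatory T cells, CCL1 through CCR8, CCL5 through CCR1 and CCR3, CCL3 through CCR1, CCL2 through CCR2 on monocytes, CCL20 through CCR6, and CXCL10 through CXCR3 on activated T cells. In Hodgkin's lymphoma the malignant Hodgkin/Reed-Sternberg cells are a minority among recruited immune cells, and CCL17 is a known product of these cells. Many chemokine genes are induced through NF-kappaB, AP-1, STAT and interferon regulatory factors, and CXCL10 is a classical interferon-induced gene.

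Of the 9 genes, 5 lie on chromosome 17 of the human genome build GRCh37 (hg19), which is the build of the files. These are CCL2 (chr17:32582293-32584227), CCL1 (chr17:32687347-32690252), CCL5 (chr17:34198495-34207797), CCL3 (chr17:34415602-34417515) and CCL4 (chr17:34431220-34433014). CCL3 and CCL4 are neighbours with 13.7 kb between them, whereas CCL2 and CCL1 are 103.1 kb apart. CCL22 (chr16:57392695-57400101) and CCL17 (chr16:57438679-57449975) share a stretch of chromosome 16 with 38.6 kb between them. CCL20 (chr2:228670455-228682280) and CXCL10 (chr4:76942271-76944650) stand alone on their chromosomes within this set.

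The sequences just upstream of the start sites are shown for 3 ligands that held a motif, as examples. The promoters of CCL2 and CCL5 are not reported here, so the motifs shown do not compare the ligands of PMA-treated Reh with those of the Hodgkin lines. They were read from the GRCh37 genome and run 5′ to 3′ on the strand of the gene, up to the last base before the start of the canonical transcript in the GENCODE annotation mapped to that build. Capitals mark a kappaB match (GGGNNTTTC) or an interferon response match (GAAANNGAA), read on either strand. CCL3 and CCL20 rose with PMA:
CCL3, chr17:34417490-34417589, minus strand: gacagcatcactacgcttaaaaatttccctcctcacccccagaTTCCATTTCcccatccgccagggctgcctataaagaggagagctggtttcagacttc
CCL20, chr2:228678458-228678557, plus strand: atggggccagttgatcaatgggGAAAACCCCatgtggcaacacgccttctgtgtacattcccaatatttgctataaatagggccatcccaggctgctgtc
CXCL10 was high in Hodgkin lines:
CXCL10, chr4:76944651-76944880, minus strand: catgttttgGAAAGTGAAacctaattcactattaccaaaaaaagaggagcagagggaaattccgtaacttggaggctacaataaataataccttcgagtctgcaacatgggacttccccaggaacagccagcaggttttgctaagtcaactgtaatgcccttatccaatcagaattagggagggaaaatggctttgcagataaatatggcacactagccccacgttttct

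In CCL20 the capitals are a kappaB match whose first base lies 78 bases before the start site. In CCL3 they are an interferon response match at 57 bases, and in CXCL10 an interferon response match at 221 bases. In the window searched, from 250 bases before to 50 bases after the start, CCL1, CCL4, CCL17 and CCL22 held neither of these, nor a STAT match (TTCNNNGAA) or an AP-1 match (TGANTCA). Of 19856 promoters searched, 4.72% held the kappaB letters, 6.50% the STAT letters, 5.41% the AP-1 letters and 7.02% the interferon response letters, and 21.03% held at least 1 of the 4. A match is a description of the letters and no evidence of binding. Sites written with other letters were not searched for or marked, in CXCL10 and CCL4 as elsewhere. The lack of a match therefore does not show that a site is absent.

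Expression is given as FPKM (fragments counted on a gene, scaled to the length of its transcript and to the size of the library), the unit of the deposited table, and the libraries of a condition are called 0 and 1 as in its columns. Differences are between means of log2(FPKM + 1), so that a gene listed at 0 stays at 0 and differences of low genes are understated. A gene was called when its adjusted p in limma was below 0.05 over all 14679 genes tested and the log2 difference was at least 1. Nothing says that the libraries of a condition came from separate cultures, so the p-values measure only the spread between these libraries. The study's methods name more than 1 sequencer model without saying which library was run on which, so a sequencer batch was not tested. All 9 ligands passed the filter of 1 FPKM in at least 2 libraries. CCL1, CCL2, CCL17, CCL22 and CXCL10 passed it only through Hodgkin libraries, CCL2 and CCL22 only through L1236. Counts of ligands called in comparisons with Hodgkin lines are therefore a description. Duplicates of the Hodgkin lines differed more (r across genes 0.906 to 0.922) than those of Namalwa, Reh and Reh_PMA (0.970 to 0.985). The depth of each library is not known from FPKM. In low genes 1 read was worth between 0.429 and 2.59 times its value in Reh library 0, least exactly read in L1236 library 1 and KM-H2 library 1.

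As a check of the labels, the B lineage marker CD79A was at 0 to 2.55 FPKM in the Hodgkin lines against 168.5 to 1102 FPKM in Namalwa, Reh and Reh_PMA, CD79B at 0 to 0.592 FPKM against 38.98 to 889 FPKM, CD22 at 0 to 3.44 FPKM against 19.05 to 101.2 FPKM, and EBF1 at 0 to 3.01 FPKM against 13.07 to 82.88 FPKM. PAX5 was at 0.446 to 1.83 FPKM in L428 and KM-H2 but at 33.78 and 19.84 FPKM in L1236, above Reh_PMA (11.33 and 17.35 FPKM). MS4A1 was listed at 0 in every Hodgkin library, but was also low in Reh and Reh_PMA (0.116 to 0.328 FPKM) and reached 5.98 and 14.61 FPKM in Namalwa. Markers of Hodgkin lines (7 genes, among them TNFRSF8, which encodes CD30) summed to 275 to 990 FPKM in the Hodgkin lines and 18.5 to 25.9 FPKM in the controls. In Reh_PMA that list reached 307 to 384 FPKM, mostly from ID2. CSF1R (11.79 and 11.15 FPKM) lay above every Hodgkin library (0.2457 to 2.052 FPKM), and TRAF1 (18.47 and 14.79 FPKM) above L1236 (10.51 and 14.27 FPKM). TNFRSF8 stayed at 0.0178 to 0.0189 FPKM, GATA3 at 0.1787 and 0.2322 FPKM and MSC at 0. CSF1R in L1236 (0.4625 and 0.2457 FPKM) overlapped untreated Reh (0.2851 and 0.2022 FPKM). Precursor markers (6 genes) summed to 1306 to 1394 FPKM in Reh and 154 to 173 FPKM in Reh_PMA. In Namalwa they summed to 168.3 to 210.3 FPKM, so the list is not particular to the Reh line. VPREB1 was listed at 0 in Reh and at 11.37 and 7.892 FPKM in Namalwa. Of other cell types that make chemokines, T cell markers (6 genes) reached 72.3 FPKM in each KM-H2 library, with CD3D, CD3G and CD4 at 1 FPKM or more and CD8A listed at 0, and at most 2.74 FPKM elsewhere. Monocyte and macrophage markers (5 genes) summed to 10.0 to 23.9 FPKM in L428, 7.18 to 10.4 FPKM in KM-H2, 2.88 to 7.02 FPKM in Reh_PMA and at most 1.47 FPKM in the other conditions. CD68 gave most of these in L428 and Reh_PMA, and CD14 reached 4.56 to 5.79 FPKM in KM-H2 and at most 0.139 FPKM in any other library. The part of these cell markers in the ligand values was not tested, and in bulk RNA fewer expressing cells and less RNA per cell cannot be told apart.

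The Hodgkin lines carried CCL17, CCL5, CXCL10, CCL2 and CCL1, each at high level in 1 or more of the lines, whereas PMA-treated Reh carried CCL3 and CCL4. The sets were not separate: L1236 also carried CCL3, at about the level of its CCL5 and CCL17, and both KM-H2 and PMA-treated Reh had CCL20 at a low level. Untreated Reh listed 8 of the 9 ligands at 0 in both libraries and held only CCL5. The summed FPKM of the 9 ligands was 712 to 976 in L428, 803 to 1277 in L1236, 287 to 329 in KM-H2, 16.8 to 39.6 in Namalwa, 3.68 to 6.38 in Reh and 468.5 to 987 in Reh_PMA. The sum in Reh_PMA thus lay within the range of the Hodgkin lines, with other genes in it.

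**Figure D1:**
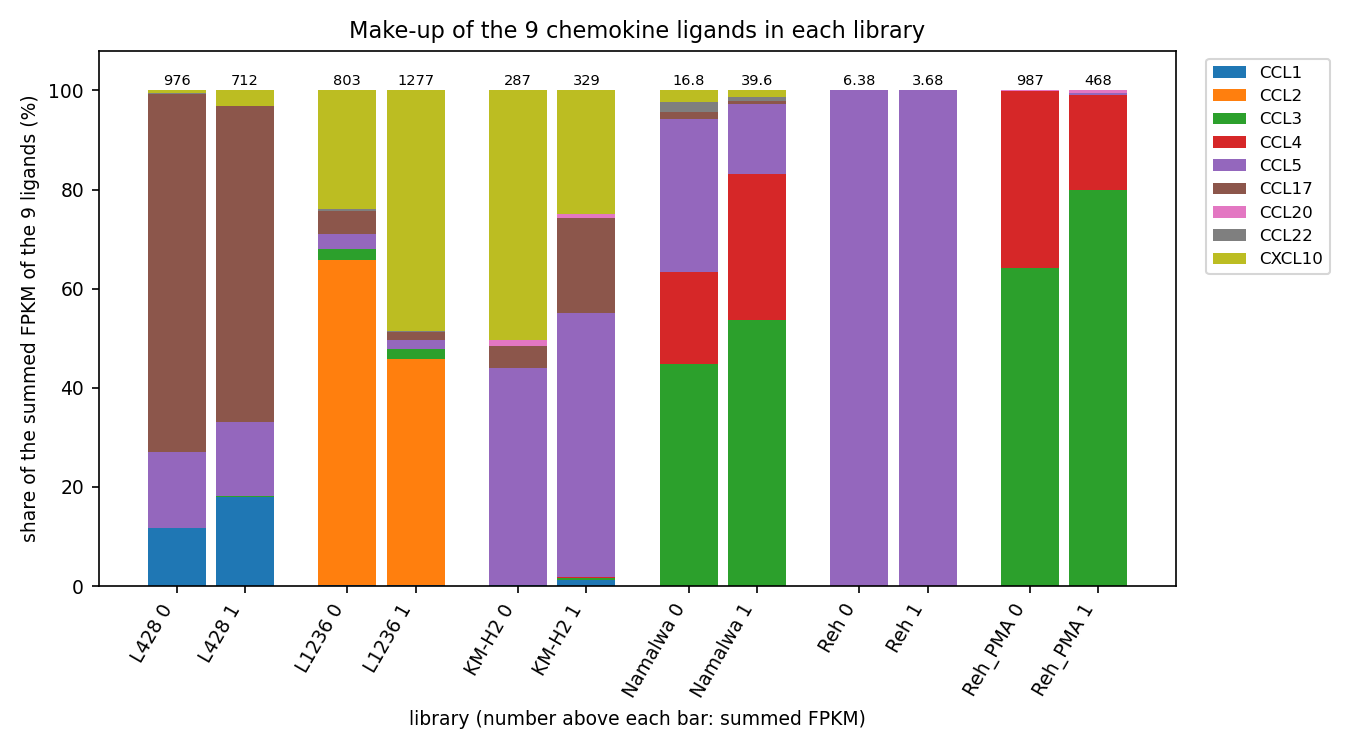
Share of each ligand in the summed FPKM of the 9 ligands (%, vertical axis) in each of the 12 libraries, with the summed FPKM above each bar. CCL17 fills 63.8 to 72.3% of the L428 bars, CCL2 with CXCL10 most of L1236, CCL5 with CXCL10 most of KM-H2, and CCL3 with CCL4 nearly all of Reh_PMA.

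In L428, CCL17 made up 63.8 to 72.3% of this sum. In L1236, CCL2 made up 45.7 to 65.6% and CXCL10 23.9 to 48.6%. In KM-H2, CCL5 made up 43.7 to 53.4% and CXCL10 24.9 to 50.4%, and in Reh_PMA CCL3 made up 64.3 to 79.8% and CCL4 19.3 to 35.5%. CXCL10 was the largest share in L1236 library 1 (48.6%) and in KM-H2 library 0 (50.4%), so the leading ligand of these lines changed between duplicates.

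**Figure D2:**
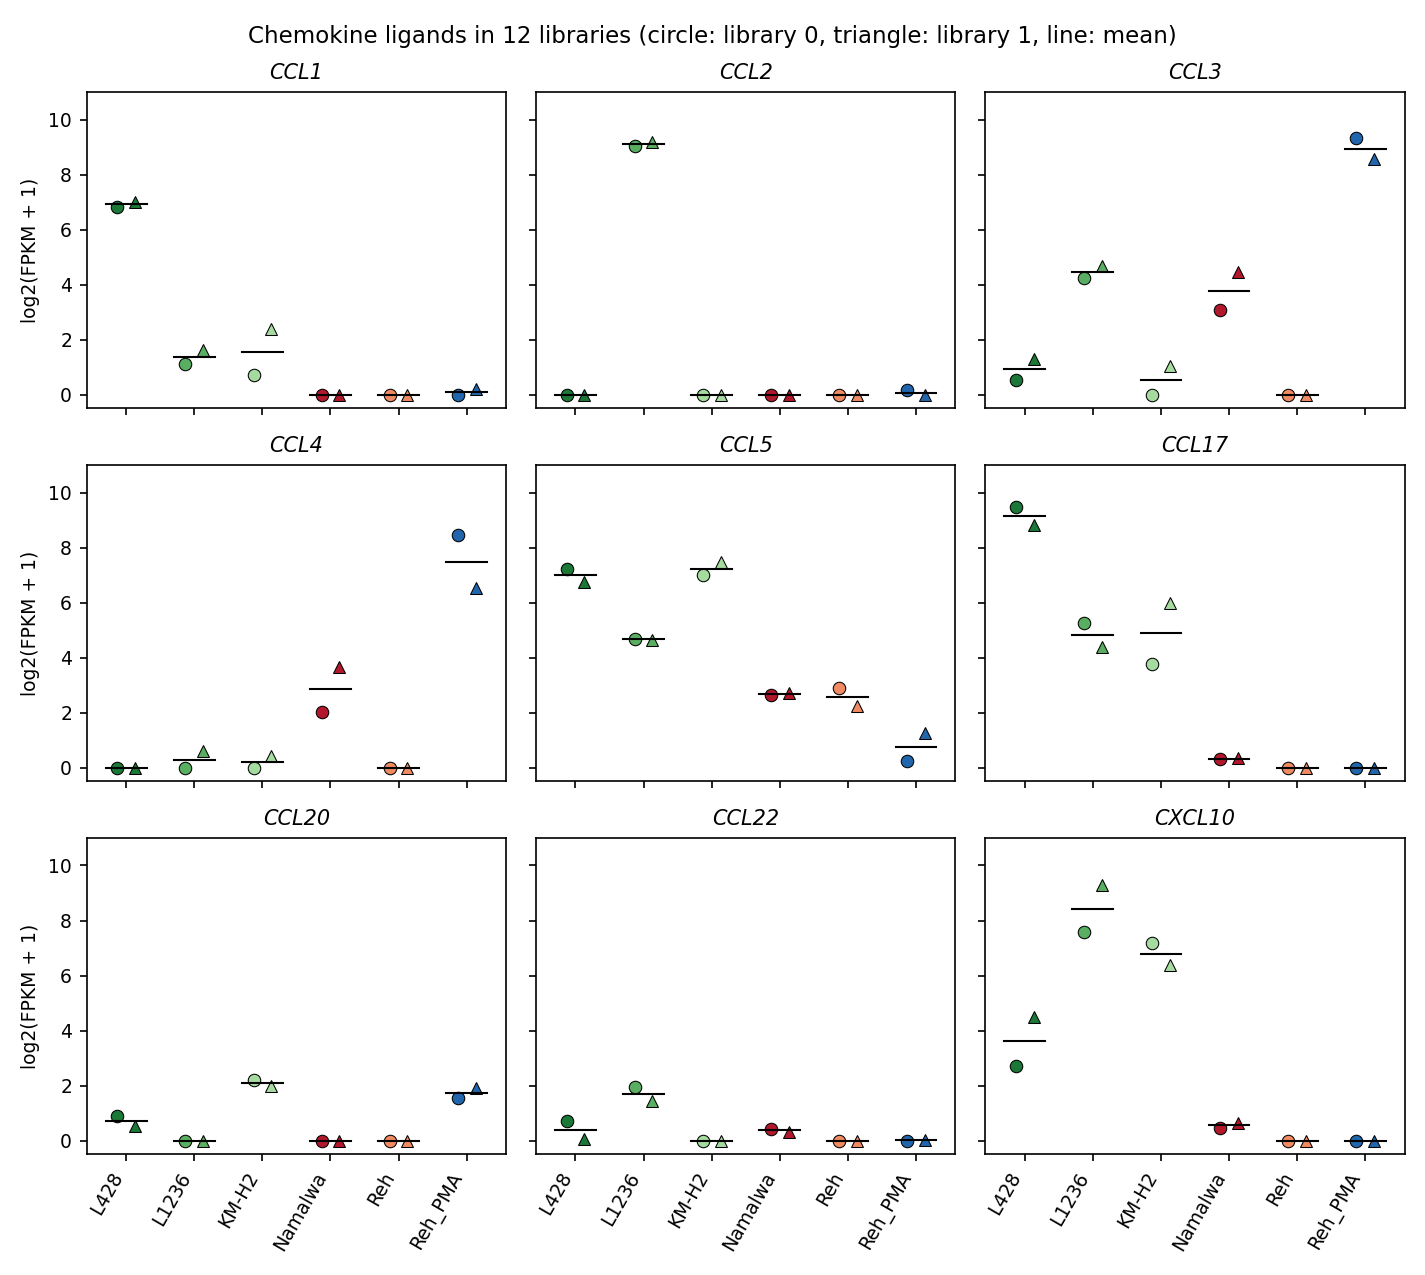
log2(FPKM + 1) (vertical axis) of each ligand, 1 panel per gene, by condition, with library 0 as a circle, library 1 as a triangle and the mean as a line. CCL17, CCL5 and CXCL10 stand above the controls in all 3 Hodgkin lines, CCL2 in L1236 alone, and CCL3 and CCL4 highest in Reh_PMA.

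Over the 3 Hodgkin lines together, 5 of the 9 ligands were higher than in Reh and Namalwa, against 13.7% of all genes tested, and 1 was lower, against 10.9%. The median difference of the 9 was 3.04 on the log2 scale, and that of all genes tested 0.02. CCL1, CCL2, CCL17 and CXCL10, all called higher, passed the filter only through Hodgkin libraries. The counts and the median are thus a description. These calls compare the libraries of these lines. With the cell line as the unit (3 lines against 2) limma called none of the 9, with adjusted p of 0.177 for CCL5, 0.187 for CCL17, 0.19 for CXCL10, 0.475 for CCL1, 0.536 for CCL4 and 0.647 for CCL2. CCL5, CCL17 and CXCL10, 3 of the 9, then had an unadjusted p below 0.05, against 1983 (13.5%) of all genes tested. By the adjusted p and the size, 80 genes in all were called.

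CCL17 (thymus and activation-regulated chemokine, a CCR4 ligand) was read at 705.3 and 453.7 FPKM in L428, 12.58 and 62.66 FPKM in KM-H2, and 37.73 and 19.75 FPKM in L1236. Namalwa had 0.232 and 0.267 FPKM, and all Reh and Reh_PMA libraries were listed at 0. Every Hodgkin library thus lay above every other library, and L428 lay above the other Hodgkin lines, whose duplicates overlapped. The Namalwa values equal 1.00 and 1.01 times the same read step after correction for depth, which is the lowest step seen for this gene. The difference from the controls was 6.12 ± 0.392 (SE, log2; adjusted p = 1.85e-06, limma) for the 3 lines together, and 8.99 in L428, 4.67 in L1236 and 4.72 in KM-H2.

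CCL22 (macrophage-derived chemokine), the other CCR4 ligand, was far lower. It was read at 2.83 and 1.74 FPKM in L1236, 0.638 and 0.0541 FPKM in L428, 0.334 and 0.253 FPKM in Namalwa, 0 and 0.0223 FPKM in Reh_PMA, and listed at 0 in KM-H2 and Reh. L1236 alone stood clear of the other conditions, and L428 overlapped Namalwa. The L1236 difference from the controls was 1.51 ± 0.187 (SE, log2; adjusted p = 0.000164, limma), whereas the 3 lines together differed by 0.51 (adjusted p = 0.0119), which is under the size threshold, but by 1.11 (adjusted p = 0.0399) with a pseudocount of 0.1. CX3CL1 (fractalkine, chr16:57406389-57418956) lies between CCL22 and CCL17 and was read at 60.18 and 39.78 FPKM in L428 and 41.15 and 32.53 FPKM in KM-H2, but at 0.0526 and 0.0145 FPKM in L1236 and at 0 in the other conditions. CX3CL1 was thus high in the Hodgkin lines other than L1236, while CCL22 was highest in L1236.

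CCL5 (RANTES, a T cell and monocyte attractant) was the ligand found in all 6 conditions. It was read at 125.6 and 175.4 FPKM in KM-H2, 149.9 and 107.0 FPKM in L428, and 24.74 and 23.81 FPKM in L1236. The controls were lower, at 5.21 and 5.62 FPKM in Namalwa and 6.38 and 3.68 FPKM in Reh, and Reh_PMA lower again at 0.184 and 1.40 FPKM. KM-H2 and L428 overlapped, as did Namalwa and Reh, while L1236 lay between these pairs. The difference from the controls was 3.68 ± 0.232 (SE, log2; adjusted p = 1.71e-06, limma), with 4.38 in L428, 2.04 in L1236 and 4.61 in KM-H2.

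CXCL10 (interferon-induced protein IP-10, a CXCR3 ligand) was read at 191.9 and 620.9 FPKM in L1236, 144.8 and 81.87 FPKM in KM-H2, and 5.58 and 21.72 FPKM in L428. Namalwa had 0.391 and 0.558 FPKM, and Reh and Reh_PMA were listed at 0. The 3 Hodgkin lines did not overlap each other or the controls, although their duplicates were wide apart. The difference was 5.997 ± 0.408 (SE, log2; adjusted p = 2.68e-06, limma), with 3.33 in L428, 8.16 in L1236 and 6.50 in KM-H2. CXCL11 (chr4:76954835-76962568), another interferon-induced CXCR3 ligand and neighbour of CXCL10, had 4.28 and 8.53 FPKM in L1236, 17.41 and 8.77 FPKM in KM-H2 and at most 0.366 FPKM elsewhere. CXCL9 (chr4:76922428-76928662), the other neighbour, named here for its position, did not exceed 0.173 FPKM in any library.

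CCL2 (monocyte chemoattractant protein 1) was read at 526.3 and 583.5 FPKM in L1236. Elsewhere it was listed at 0 in every library but Reh_PMA library 0, which had 0.114 FPKM. L428 and KM-H2 were at the level of the controls, so the pooled difference of 3.04 ± 0.10 (SE, log2; adjusted p = 6.3e-08, limma) came from L1236, where it was 9.12 ± 0.134 (adjusted p = 2.24e-09). Of the ligand genes between CCL2 and CCL1 on chromosome 17, the monocyte attractants CCL7 and CCL8 are named here. They reached 0.0658 and 0.160 FPKM in L1236 library 1 and were listed at 0 in L1236 library 0. CCL11 and CCL13 also lie in that stretch, and their values are not given. Monocyte and macrophage markers summed to 0.308 to 0.322 FPKM in L1236, and their part in the CCL2 values was not tested.

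CCL1 (a CCR8 ligand) was read at 113.3 and 127.3 FPKM in L428, 1.18 and 2.06 FPKM in L1236, and 0.629 and 4.24 FPKM in KM-H2. It was listed at 0 in Namalwa, Reh and Reh_PMA library 0, and Reh_PMA library 1 had 0.148 FPKM. L428 stood far above the rest, and the other Hodgkin lines overlapped each other. The difference was 6.92 ± 0.385 (SE, log2) in L428, 1.37 in L1236 (adjusted p = 0.0173, limma) and 1.55 in KM-H2 (adjusted p = 0.00917). The L1236 call was lost without L1236 library 1 (1.12, adjusted p = 0.141), and that of KM-H2 fell below the size threshold without KM-H2 library 1 (0.70) and was lost with only the conditions compared in the fit (adjusted p = 0.0562). After correction for depth, the values of KM-H2 library 0, L1236 library 0 and Reh_PMA library 1 were 1.00, 2.99 and 1.01 times the lowest read step, so these low levels are at most 3 of the lowest steps seen for this gene.

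CCL20 (a CCR6 ligand) was low throughout. It was read at 3.57 and 2.997 FPKM in KM-H2, 1.95 and 2.78 FPKM in Reh_PMA and 0.870 and 0.448 FPKM in L428, and listed at 0 in L1236, Namalwa and Reh. KM-H2 lay above the other Hodgkin lines, with a difference from the controls of 2.10 ± 0.151 (SE, log2; adjusted p = 4.94e-06, limma). After correction for depth, both L428 values were at the lowest step seen for this gene (1.00 and 1.01) and KM-H2 library 0 at 2.26 such steps, so these CCL20 differences rest on few steps. Over the 3 lines the difference of 0.94 (adjusted p = 0.000102) was under the size threshold, and it was 2.65 (adjusted p = 1.08e-05) with a pseudocount of 0.1.

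CCL3 and CCL4 (macrophage inflammatory proteins 1 alpha and 1 beta) were low in L428 and KM-H2. CCL3 was read at 18.03 and 24.58 FPKM in L1236, 0.465 and 1.44 FPKM in L428 and 0 and 1.07 FPKM in KM-H2, beside 7.55 and 21.23 FPKM in Namalwa and 0 in Reh. CCL4 did not exceed 0.506 FPKM in any Hodgkin library, against 3.11 and 11.66 FPKM in Namalwa and 0 in Reh. The controls therefore differed from each other in these genes, and Namalwa overlapped L1236 in CCL3.

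Over the 3 Hodgkin lines CCL3 did not differ from the controls by the test (0.08 ± 0.332, SE, log2; adjusted p = 0.861, limma), but it was higher against Reh alone (1.97, adjusted p = 0.00404) and lower against Namalwa alone (-1.82, adjusted p = 0.00631). CCL4 was lower (-1.26 ± 0.413, SE; adjusted p = 0.0278), which rested on Namalwa: against Reh alone it was 0.17 (adjusted p = 0.816). That call was lost on leaving out either library of L428, KM-H2 or Reh, library 0 of L1236 or library 1 of Namalwa, with adjusted p from 0.0519 to 0.12.

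By line, L428 was higher than the controls in 4 of the 9 ligands (CCL1, CCL5, CCL17 and CXCL10), against 16.2% of all genes tested. L1236 was higher in 7 (all but CCL4 and CCL20), against 15.7%, and its CCL3 difference was 2.57 ± 0.445 (SE, log2; adjusted p = 0.00132, limma). KM-H2 was higher in 5 (CCL1, CCL5, CCL17, CCL20 and CXCL10), against 16.8%. CCL3 was lower in KM-H2, 1 of 9 against 13.5%, by -1.37 ± 0.445 (adjusted p = 0.0312). This call did not hold without KM-H2 library 0 (-0.84, adjusted p = 0.263), without Namalwa library 1 (-1.02, adjusted p = 0.0743) or without either Reh library (adjusted p = 0.0674 and 0.0675), nor with a pseudocount of 0.1 (0.141), without a filter (0.0519) or with only the conditions compared in the fit (0.086). No ligand was called lower in L428, where 1 had an unadjusted p below 0.05 in limma, or in L1236, where none had, against 13.8% and 13.3% of all genes tested that were called lower in these lines. CCL17, CCL5, CXCL10 and CCL1 were called in all 3 lines, and the 3 lines themselves differed in 8 of the 9, against 42.2% of all genes tested, the exception being CCL4 (adjusted p = 0.931).

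Between the controls, Namalwa was higher than Reh in CCL3 (3.79 ± 0.514, SE, log2; adjusted p = 0.000533, limma) and CCL4 (2.85 ± 0.640; adjusted p = 0.00991), which is 2 of 9 against 7.50% of all genes tested. The CCL4 call was lost without Namalwa library 1 (adjusted p = 0.0778) and without Reh library 0 or 1 (0.0592 and 0.0563), and with only these lines in the fit (0.0702). None of the 9 was lower, against 11.5% of all genes tested, nor had any an unadjusted p below 0.05 in that direction in limma.

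With PMA, CCL3, CCL4 and CCL20 rose in Reh and CCL5 fell. CCL3 went from 0 in both Reh libraries to 634.4 and 373.9 FPKM, and CCL4 from 0 to 350.8 and 90.29 FPKM. CCL20 went from 0 to 1.95 and 2.78 FPKM. CCL5, the single ligand of untreated Reh, went from 6.38 and 3.68 FPKM to 0.184 and 1.40 FPKM. The treated and untreated libraries did not overlap in these 4 genes. CCL17 and CXCL10 remained listed at 0, and CCL1, CCL2 and CCL22 did not exceed 0.148 FPKM in either treated library.

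By limma 3 of the 9 ligands were higher with PMA, against 10.5% of all genes tested, and 1 was lower, against 11.8%. The median difference of the 9 was 0.08 on the log2 scale and that of all genes -0.03. CCL3 rose by 8.93 ± 0.514 (SE, log2; adjusted p = 7.64e-06), CCL4 by 7.49 ± 0.640 (adjusted p = 6.24e-05) and CCL20 by 1.74 ± 0.174 (adjusted p = 0.000161). As untreated Reh is listed at 0, no fold is given for them. CCL5 was lower by -1.80 ± 0.359 (adjusted p = 0.00568), a call that was lost without Reh library 0 (-1.47, adjusted p = 0.0532) and with only the Reh and Reh_PMA libraries in the fit (adjusted p = 0.0768).

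CCL3 and CCL4 have near-identical copies, and reads may have been split between them, so the levels of single copies are uncertain. In Reh_PMA the copy CCL3L3 had 85.36 and 55.90 FPKM, and CCL4L2 had 403.2 and 24.67 FPKM. The 2 treated libraries thus differed much more in CCL4L2 than in CCL3L3. Summed with their copies, CCL3 reached 719.8 and 429.8 FPKM and CCL4 759.9 and 115.0 FPKM. All copies were listed at 0 in Reh. With copies summed the calls of both genes in the PMA comparison were kept, while the summed CCL4 was also called lower than the controls in L428 (-2.01, adjusted p = 0.0323) and KM-H2 (-1.81, adjusted p = 0.0491).

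**Figure D3:**
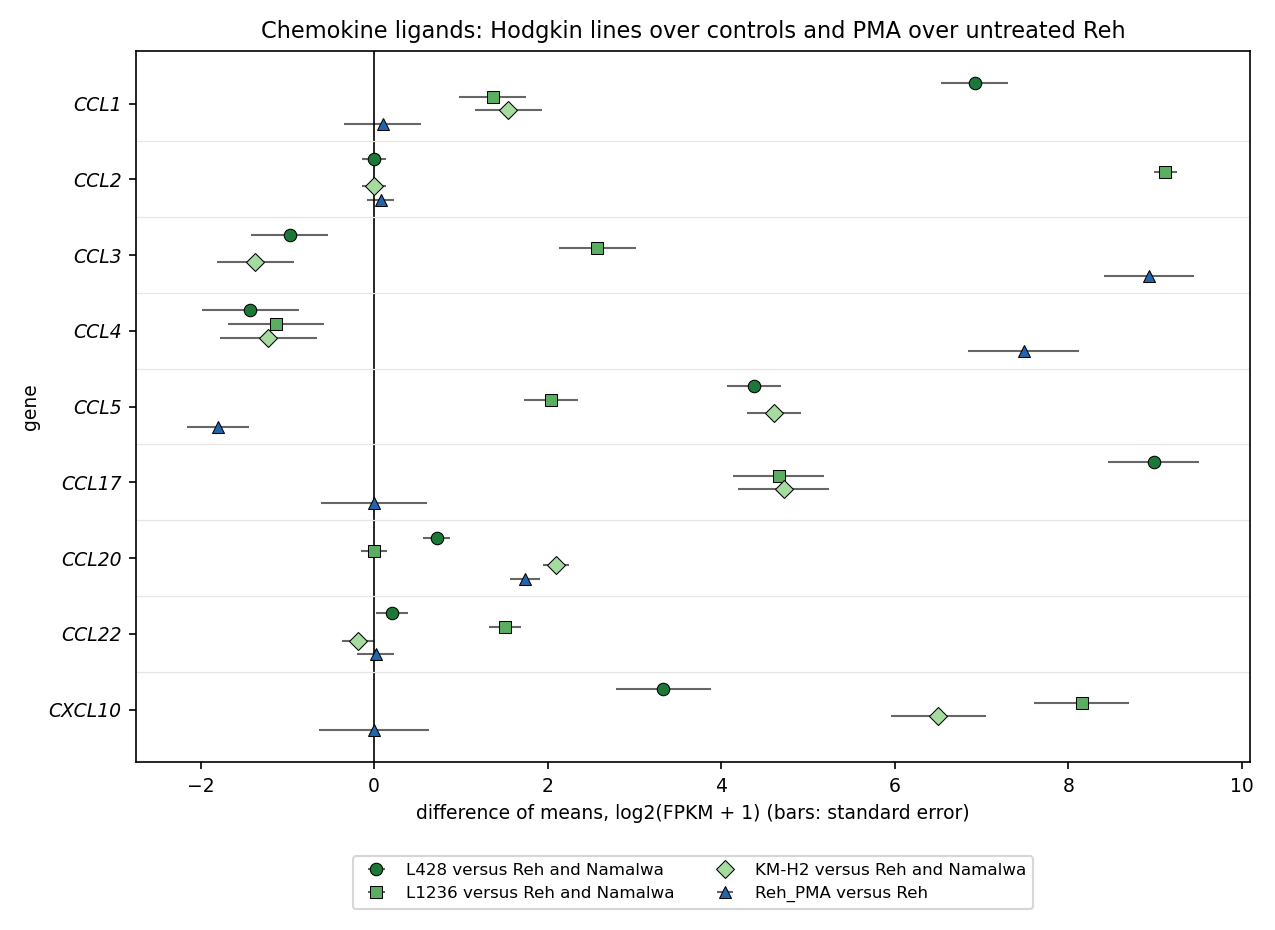
Difference of mean log2(FPKM + 1) (horizontal axis, bars: standard error) of each ligand for L428, L1236 and KM-H2 against Reh and Namalwa, and for Reh_PMA against Reh. CCL5 lies on opposite sides of 0 in the Hodgkin lines and with PMA, CCL17 and CXCL10 are at 0 with PMA, and CCL3 and CCL4 reach 8.93 and 7.49 with PMA.

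The plot of differences sets these comparisons side by side. They share the untreated Reh libraries, so the direct comparison of the Hodgkin lines with Reh_PMA was also made. There 5 of the 9 ligands were higher in the Hodgkin lines, against 19.1% of all genes tested, and 2 were lower, against 15.8%. Because of the filter these counts are a description too. The higher ones were CCL17 by 6.28 ± 0.495 (SE, log2), CXCL10 by 6.28 ± 0.516, CCL5 by 5.54 ± 0.294, CCL1 by 3.18 ± 0.363 and CCL2 by 2.96 ± 0.127, and the largest adjusted p of these in limma was 8e-05. The lower ones were CCL3 by -6.96 ± 0.420 (adjusted p = 1.42e-06) and CCL4 by -7.32 ± 0.523 (adjusted p = 3.99e-06). CCL20 (-0.80, adjusted p = 0.00118) and CCL22 (0.68, adjusted p = 0.009) were under the size threshold. With a pseudocount of 0.1 these differences were -1.96 (adjusted p = 0.000343) and 1.95 (adjusted p = 0.009), past both thresholds.

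By line, L428 was higher than Reh_PMA in 4 ligands (19.5% of all genes tested) and lower in 3 (17.5%), L1236 higher in 6 (18.9%) and lower in 3 (16.7%), and KM-H2 higher in 4 (21.6%) and lower in 2 (18.2%). CCL3 and CCL4 were lower in each line, by between -4.47 (CCL3 in L1236) and -8.41 (CCL3 in KM-H2). CCL20, the ligand shared by PMA-treated Reh and KM-H2, differed between these by 0.36 ± 0.174 (SE, log2; adjusted p = 0.115, limma), whereas it was lower than in Reh_PMA by -1.74 in L1236 and by -1.02 in L428. The L428 value fell below the size threshold without L428 library 1 or Reh_PMA library 1 (-0.84 each) and when libraries were rescaled to one upper quartile (-0.95). CCL1 in L1236 exceeded Reh_PMA by 1.27 (adjusted p = 0.0416), but this call was lost on leaving out any library other than the 2 of KM-H2, with adjusted p from 0.0549 to 0.195, and without a filter on low values (0.0726). CCL1 in KM-H2 (1.45, adjusted p = 0.0224) was lost without KM-H2 library 1 (0.60, adjusted p = 0.0664) and without Reh_PMA library 0 or 1 (adjusted p = 0.11 and 0.0695), and with only the conditions compared in the fit (0.148).

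Of 39 other chemokine ligands in the table, 7 passed the filter and were tested. CX3CL1, CXCL11 and CXCL16 passed only through Hodgkin libraries and CXCL8 only through Reh_PMA, so the counts over the 7 are a description. In the Hodgkin lines 3 were higher than in the controls, namely CX3CL1 (3.64), CXCL11 (2.21) and CXCL16 (1.21, log2 differences), and none was lower, against 13.7% and 10.9% of all genes tested. CXCL16, a CXCR6 ligand, was read at 5.22 and 5.17 FPKM in L1236 and 1.13 and 1.22 FPKM in L428, but at 0.245 and 0.134 FPKM in KM-H2, where it was not called (0.13, adjusted p = 0.442, limma). With PMA 3 were higher, namely CCL4L2 (6.67), CCL3L3 (6.13) and CXCL8 (5.06), and none was lower, against 10.5% and 11.8% of all genes tested. CXCL8 (interleukin-8, a neutrophil attractant) went from 0.732 and 0.884 FPKM in Reh to 73.79 and 47.80 FPKM in Reh_PMA and did not exceed 0.785 FPKM in any Hodgkin library.

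Of 23 chemokine receptors 7 passed the filter, CCR4 and CXCR3 among them only through the Hodgkin libraries, so the counts are a description here too. In the Hodgkin lines 4 were higher (CCR7 by 5.67, CCR4 by 4.92, ACKR3 by 1.59 and CXCR3 by 1.33) and 1 lower (CXCR4 by -1.16, log2), against 13.7% and 10.9% of all genes tested. Only CCR7 and CCR4 of these 5 were called in each of the 3 lines. ACKR3 was not called in L428 (-0.62, at 0.0757 and 0.0772 FPKM, below the 1.69 and 1.80 FPKM of Namalwa), CXCR3 was under the size threshold in KM-H2 (0.82), and CXCR4 was not called in L428 (-0.28). CCR4, the receptor of CCL17 and CCL22, was read at 164.7 and 154.6 FPKM in L428, 16.59 and 26.49 FPKM in L1236 and 10.15 and 5.21 FPKM in KM-H2, and at most 0.0686 FPKM in the other conditions. CCR4 and CCL17 were both highest in L428, whereas CCL22, the other CCR4 ligand, was highest in L1236. CXCR3, the receptor of CXCL10, had between 0.355 and 3.67 FPKM in the Hodgkin libraries and at most 0.0800 FPKM elsewhere. Its duplicates overlapped between L428 (3.67 and 2.03 FPKM) and L1236 (2.39 and 0.926 FPKM), the Hodgkin lines with the least and the most CXCL10. Of the receptors of the other ligands, CCR1, CCR2, CCR3 and CCR8 were listed at 0 in every Hodgkin library and CCR6 did not exceed 0.109 FPKM there. With PMA no receptor was higher and CXCR4, the CXCL12 receptor, fell by 3.71 on the log2 scale, from 133.8 and 135.3 FPKM to 6.90 and 12.52 FPKM. These counts of 0 and 1 of 7 stand against 10.5% and 11.8% of all genes tested.

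All 18 transcription factors listed as known to act on chemokine genes were tested. In the Hodgkin lines 12 were higher and none lower, against 13.7% and 10.9% of all genes tested, with a median of 1.51 (all genes 0.02), led by BATF3 (5.62), IRF4 (4.30), GATA3 (3.83), STAT5A (3.51) and JUN (3.42). With PMA 6 were higher and 2 lower, against 10.5% and 11.8% of all genes tested, with a median of 0.61 (all genes -0.03). The higher ones with the largest differences were the AP-1 subunits FOS (4.70) and JUNB (3.34) and the NF-kappaB subunit RELB (2.48), and the lower ones IRF1 (-2.08), an interferon regulatory factor, and STAT5A (-1.28). STAT5A was thus higher in the Hodgkin lines and lower with PMA. JUNB and NFKB2 were above the controls in both. JUNB was at 135.8 to 295.1 FPKM in the Hodgkin lines and 245.1 and 187.9 FPKM in Reh_PMA, against 18.56 to 23.93 FPKM in controls. NFKB2 was at 54.06 to 146.6 FPKM in the Hodgkin lines and 26.26 and 28.61 FPKM in Reh_PMA, against 5.83 to 18.16 FPKM in controls. The list was counted as a whole and no relation between a factor and a ligand was tested.

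Over the 12 libraries the genes most alike to each ligand in log2(FPKM + 1) were picked by Pearson's r, as a description in which a few libraries decide. For CXCL10 they were HMSD (r = 0.994), PLOD2 and PDE5A, for CCL17 PTPRS (0.989), TMEM74 and ELOVL4, and for CCL5 HEMK1 (0.973), NINJ1 and FAM210B. For CCL1 they were PTK6 (0.993), LOC388813 and DNAH7, and for CCL22 CPLX1 (0.991), FGF9 and USP32P2. CCL2 was matched by PNMAL1, KRT27 and ANKRD55 (each 0.9999), which were listed at 0 outside L1236 except PNMAL1 in Reh_PMA library 0 (0.0195 FPKM). For CCL4 the likest were the copies CCL3L3 (0.985) and CCL4L2 (0.977) and then DNTTIP2, for CCL3 DUSP18 (0.963), TM2D2 and TAX1BP1, and for CCL20 SDC2 (0.968), DOCK4 and SDHAF2. SDC2 had 9.97 and 9.98 FPKM in KM-H2 and 12.01 and 10.92 FPKM in Reh_PMA, against at most 1.59 FPKM elsewhere, the same pair of conditions that carried the most CCL20.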

How the data were processed

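Total RNA from 2 libraries of each of 6 conditions was sequenced with a stranded, ribosomal RNA-depleted protocol. The authors aligned reads to hg19 with TopHat2 2.0.11 and computed FPKM per gene with Cuffnorm 2.2.1, per the labels and the submitters' processing notes, and the deposited table holds these FPKM values for 26210 gene symbols. No library depths were used here. The columns are numbered 0 and 1, whereas the labels number replicates otherwise, so columns were assigned to conditions and not to single samples.

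FPKM was transformed to log2(FPKM + 1), and the 14679 genes with at least 1 FPKM in at least 2 of 12 libraries were fitted together with limma 3.58.1 in R 4.3.3, with 1 mean per condition and trended empirical Bayes moderation. P-values were adjusted by Benjamini-Hochberg over all genes tested. Genes were called at an adjusted p below 0.05 and a log2 difference of at least 1. Controls were the mean of Reh and Namalwa, and the 3 Hodgkin lines were compared among themselves by a moderated F test. The procedure was tested on simulated data. Named genes are the 9 ligands, in each other list at most the 5 called genes with the largest difference per comparison, receptors of the 9, and the 3 genes most alike to each ligand; CXCL9, CCL7 and CCL8 were added for their position, and single marker genes after their values were seen. The ligands and lists were chosen with earlier results of these data known. Alternatives were another pseudocount, other filters, rescaling, single controls, cell line as the unit, a replicate block, leaving out each library, single-numbered libraries and summed copies. The last 2, and the block by column number, were chosen after seeing the data. Some items, among them part of a marker list and of the promoter sequences, are not reported here.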

Additional observations from a re-analysis of the deposited data

Results flagged for a closer look

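The 3 Hodgkin lines differed from each other in 8 of the 9 ligands by the moderated F test of limma, against 42.2% of all genes tested. The count is a description, as CCL1, CCL2, CCL17, CCL22 and CXCL10 passed the filter only through Hodgkin libraries. Between the line with the highest and the line with the lowest mean, CCL2 differed by 9.12 on the log2(FPKM + 1) scale (adjusted p = 4.66e-09, highest in L1236), CCL1 by 5.55 (1.24e-05, highest in L428) and CXCL10 by 4.82 (0.000593, highest in L1236). CCL17 differed by 4.32 (0.000423, highest in L428), CCL3 by 3.94 (0.000345, highest in L1236) and CCL5 by 2.56 (0.00053, highest in KM-H2, with L428 overlapping it). CCL20 differed by 2.10 (3.14e-05, highest in KM-H2) and CCL22 by 1.70 (0.000401, highest in L1236), both at levels under 4 FPKM. All of these p-values are adjusted over all genes tested by Benjamini-Hochberg.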

How the results depend on the processing

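With the cell line as the unit, 80 genes were called between Hodgkin lines and controls, 0 of the 9 ligands higher and 0 lower. The number of ligands called lower in the Hodgkin lines was 0 with Reh alone and 2 with Namalwa alone as the control, and reversals of direction occurred in CCL4 against Reh alone (0.17) and CCL3 against Namalwa alone (-1.82). With a pseudocount of 0.1 FPKM, 1 ligand was lower in L428, 0 in KM-H2, and 4 were higher in Namalwa than Reh. Without a filter on low values, 0 were lower in KM-H2. With only the conditions of the comparison in the fit, 0 were lower in KM-H2, 1 was higher in Namalwa and 0 were lower with PMA. On leaving out 1 library, ligands called lower ranged from 0 to 1 for the 3 Hodgkin lines, 0 to 2 in L428, 0 to 1 in L1236, 0 to 2 in KM-H2 and 0 to 1 with PMA, those higher in Namalwa from 1 to 2, and all genes called with PMA from 2082 (without Reh_PMA library 0) to 3363, with 2168 without Reh library 0. No count of ligands called higher in Hodgkin lines or with PMA moved beyond 1.5 times under leaving out a library. No called ligand difference changed direction with libraries numbered 0 alone or 1 alone (1 library a condition, no test). In each of these settings 38 ligand differences moved by more than their standard error in the main fit, and 52 did not. CCL17 in KM-H2 over the controls, for example, was 3.61 with libraries 0 and 5.82 with libraries 1.

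The planned replicate block could not be fitted because the columns do not carry the replicate numbers of the labels. With the column number as the replicate block instead, 3456 genes were called with PMA (3265 without) and 3643 between Hodgkin lines and controls (3614 without), and no count of ligands changed. Differences between libraries 1 and 0 correlated across genes over 0.1 in 6 of 15 pairs of conditions (-0.045 to 0.681), so the numbers were not taken as pairs over all conditions. They did go together among the 3 Hodgkin lines (0.301, 0.427 and 0.681) and in Namalwa with Reh (0.357). Among the 3 Hodgkin lines 6354 genes were called with the block (6191 without), with 8 ligands in each. FPKM without depths limits what can be said of values near 0.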
